A study of Mus musculus with 70 samples.

Results

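The cerebral cortex of MctDio KO mice was compared with that of hypothyroid MMI mice, using 14 of the 70 RNA-seq libraries of the series, 7 per group, all taken by their labels. MctDio KO is a double-knockout line that lacks Dio2 and another gene that is not reported here. MMI mice are C57BL/6J wild-type males whose dams drank 0.02% methimazole, which blocks thyroid hormone synthesis, with 1% perchlorate, which blocks iodide uptake, between embryonic day 9 and postnatal day 21. Both groups were sampled on postnatal days 21 to 23. Cortex of 7 untreated wild-type mice (WT) gave a point of comparison, and the 7 striatum libraries of each group were fitted separately. Neither strain nor sex is stated for the MctDio KO mice, and no age is stated for the WT mice. Methimazole acts on the whole body and began before birth, and the labels name no tissue to which the gene losses are limited.

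Thyroid hormone reaches the brain mainly as T4, and the deiodinase encoded by Dio2, made largely by astrocytes, turns T4 into the active T3. T3 binds nuclear receptors that raise some genes and lower others, and many of these genes serve late brain maturation: myelin, neurofilaments, ion channels and parvalbumin interneurons. Methimazole stops hormone synthesis in the thyroid gland, and loss of Dio2 removes a step of activation within the tissue.

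Dissection and labels were checked first. All 14 libraries had at least 1440 CPM (normalised read counts scaled to a common library size) of Slc17a7 and at least 130 CPM of Tbr1, markers of cortical excitatory neurons, and at most 7.85 CPM of the striatal receptor Drd2. Other striatal markers reached higher levels. Drd1 had 10.8 to 36.5 CPM in MctDio KO and 16.3 to 23.8 CPM in MMI. Ppp1r1b had 40.5 to 169 CPM in MctDio KO and 51.7 to 94.9 CPM in MMI, against at least 1190 CPM in the striatum libraries of these groups. Counts in genes ranged between 9982587 and 20034629 per library. Ddx3y, on the Y chromosome, was at 55.3 CPM or more in MctDio KO and 45.2 CPM or more in MMI, and the female transcript Xist never exceeded 3 reads. MctDio KO 1 lay apart from the other 6 on the first principal component, at 0.129 against 4.45 to 8.04, with MMI at -7.58 to -3.44. On the second (18.3% of variance) MctDio KO 1 to 4 lay at 1.865 to 10.2 and MctDio KO 5 to 7 at -6.349 to -2.372. MMI lay at -4.323 to 2.202. MctDio KO 3 had more choroid plexus RNA than the other MctDio KO libraries, with Ttr at 422 CPM against 9.48 to 182 CPM in the other 6. In MMI Ttr was 9.55 to 312 CPM, with a median of 163 CPM against 21.2 CPM in MctDio KO. The 10 choroid plexus genes tested summed to 202 to 904 CPM in MctDio KO (median 253) and 204 to 519 CPM in MMI (median 343), and none was called. The 21 striatal medium spiny neuron genes tested summed to 1090 to 1820 CPM in MctDio KO (median 1150) and 1060 to 1360 CPM in MMI (median 1160). MctDio KO 3 was the highest, at 1820 CPM, and none of the 21 genes was called. How much striatal tissue the cortex samples held was not tested.

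Of 15539 genes tested, 623 were higher and 788 lower in MctDio KO than in MMI at a Benjamini-Hochberg adjusted p under 0.05, which is what called means here. That is 9.08% of the genes, 4.01% higher and 5.07% lower. Counts of called members on the gene lists below are to be read beside these shares. The changes were mostly small, with a median size of 0.35 on the log2 scale among called genes. Only 28 rose and 80 fell by more than 2-fold. The ranges of both groups did not overlap for 399 genes, 2.57% of those tested. Scaling by library totals alone moved the split to 451 higher and 935 lower, and leaving out MMI 3 left 414 higher. A fit over all 35 cortex libraries called 516 genes and kept 34.9% of the calls made here. The same fit without 2 MctOatp KO libraries that stood apart, chosen after seeing the data, called 1805 and kept 94.5%. Counts given below for the fit over 35 libraries include those 2 libraries.

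Dio2 had the largest fall of the genes named here. Dio2 (ENSMUSG00000007682, chromosome 12, 90724552 to 90738438, minus strand, GRCm38) had 4.47 to 8.17 CPM in MctDio KO (median 6.29), 274 to 385 CPM in MMI (median 315) and 150 to 200 CPM in WT (median 170). The MctDio KO and MMI libraries were far apart, and MMI also stood above every WT library. The fitted log2 change was -5.7 ± 0.11 (SE, adjusted p = 1.51e-18), and in striatum -5.37. Gm26512, which overlaps Dio2 on the other strand, averaged 0.543 ± 0.138 CPM in MctDio KO and 1.33 ± 0.359 CPM in MMI (SD, n = 7 each). Its log2 change was -1.32. Reads were not stranded, so the pair cannot be told apart where they overlap, between 90738201 and 90738438. The rest of Gm26512, up to 90869235, lies outside Dio2.

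On a list of 24 tested genes for thyroid hormone handling, 1 rose and 3 fell, with Dio2 among the falls. Over the whole list 16.7% were called, beside 9.08% of all genes tested. Slc7a5, a large amino acid transporter that also carries thyroid hormone, had 84.8 to 96.3 CPM in MctDio KO and 104 to 142 CPM in MMI, with no overlap (log2 change -0.43 ± 0.06, adjusted p = 5.54e-05). Iyd, which recovers iodide from iodotyrosines, fell by 0.84 on the log2 scale, at a mean of 0.724 CPM in MctDio KO and 1.32 CPM in MMI. Itgav, an integrin subunit, rose by 0.21. Slco1c1, the T4 transporter of the blood-brain barrier, measured 109 ± 20.1 CPM in MctDio KO and 128 ± 15.1 CPM in MMI (adjusted p = 0.197). Dio3, the inactivating deiodinase, averaged 1.4 CPM in MctDio KO and 1.2 CPM in MMI, with overlapping ranges (adjusted p = 0.886). The receptor gene Thrb averaged 60.8 CPM in MctDio KO and 53.3 CPM in MMI (adjusted p = 0.217).

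Of 36 tested genes listed as raised by thyroid hormone, 17 rose in MctDio KO, 2 fell and 17 were not called. That is 52.8% called, beside 9.08% of all genes tested, with a median log2 change of 0.27 against -0.0024. Of the genes listed as lowered by the hormone, none of 20 rose and 10 fell (50%), with a median of -0.48. Dio2 is on that last list, and its fall is that of the deleted gene. Both lists were written with earlier results of these data known, so the counts are a description and not independent support. Fitted with all 35 cortex libraries, 8 of the hormone-raised genes were called higher.

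Aldh1a1, an enzyme that makes retinoic acid, showed the largest rise of the genes named here apart from the pseudogene Rps3a3. Aldh1a1 (ENSMUSG00000053279, chromosome 19, 20492715 to 20643465, plus strand) had 42.8 to 68.2 CPM in MctDio KO (median 57.4), 3.37 to 5.52 CPM in MMI (median 3.95) and 49.7 to 59.3 CPM in WT. MctDio KO and MMI did not overlap, and all WT libraries lay within the MctDio KO range. The log2 change was 3.73 ± 0.13 (adjusted p = 2.21e-13), a 13.3-fold higher level, and 3.44 in striatum. Of 19 retinoid genes tested 15.8% were called, beside 9.08% of all genes tested, and Aldh1a1 was the only rise. Stra6, the retinol transporter, averaged 3.35 CPM in MctDio KO and 6.34 CPM in MMI (-0.93).

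Pvalb, parvalbumin, which binds calcium in fast-spiking cells, stood otherwise against WT. It had 10.6 to 13.6 CPM in MctDio KO (median 11.4), 2.72 to 5.57 CPM in MMI (median 3.97) and 46.2 to 68.3 CPM in WT (median 61). All 3 groups were separate, with MctDio KO above MMI and far below WT. The log2 change between MctDio KO and MMI was 1.49 ± 0.12 (adjusted p = 2.45e-08). Hr, a corepressor that T3 induces directly, had 21 to 26.8 CPM in MctDio KO (median 22.4), 15.4 to 18.1 CPM in MMI (median 16) and 81.9 to 121 CPM in WT (median 85.7). Its change of 0.52 ± 0.07 (adjusted p = 4.89e-05) spans only a small part of the distance to WT. Kcnj10, the inward-rectifier potassium channel of glia, had 98.3 to 220 CPM in MctDio KO (median 179), 40.9 to 60.8 CPM in MMI (median 52.2) and 261 to 405 CPM in WT (median 329) (1.72 ± 0.18, adjusted p = 5.07e-05). Within MctDio KO its level was 98.3 to 181 CPM in libraries 1 to 4 and 179 to 220 CPM in libraries 5 to 7. Robo3, an axon guidance receptor, averaged 14.2 CPM in MctDio KO, 9.59 CPM in MMI and 80.3 CPM in WT.

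**Figure D1:**
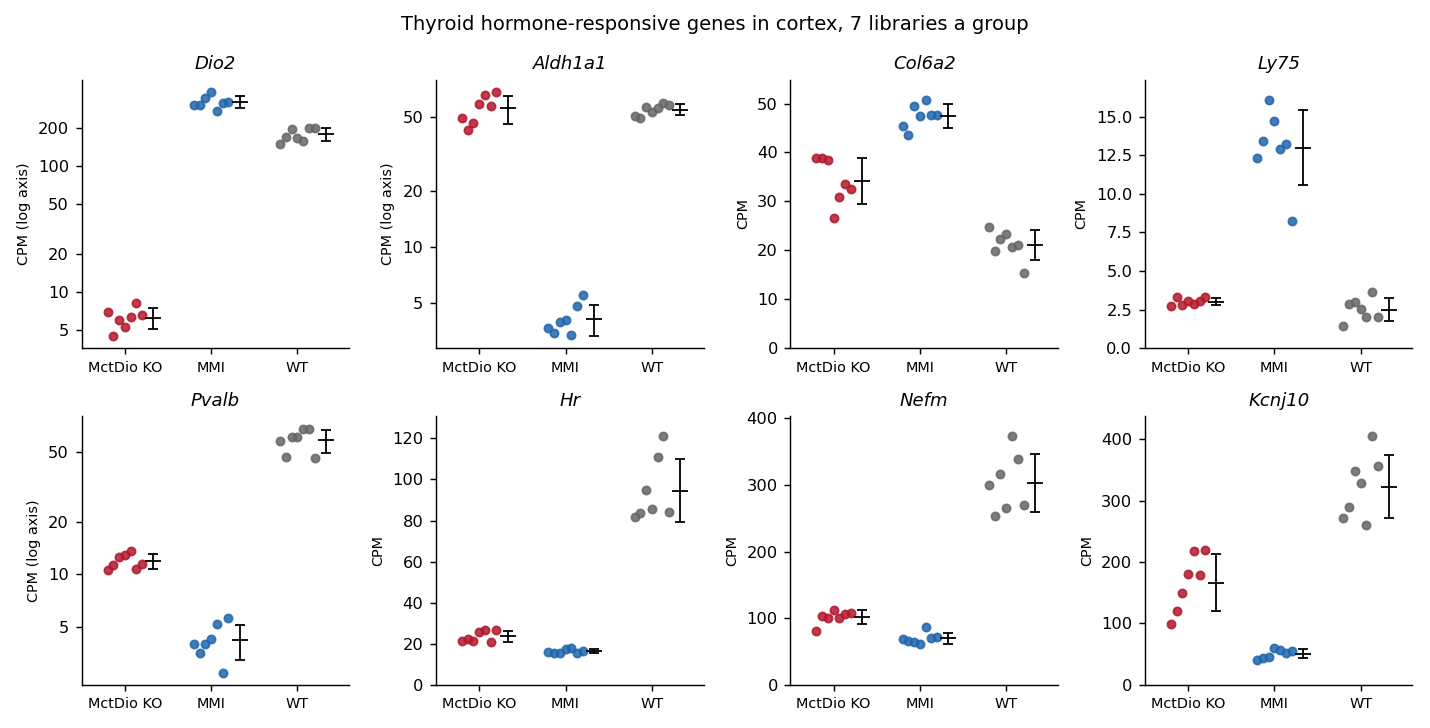
Normalised counts (CPM) of 8 thyroid hormone-responsive genes in 7 cortex libraries each of MctDio KO, MMI and WT; points are libraries, and bars give mean and SD. The axes of Dio2, Aldh1a1 and Pvalb are logarithmic. Aldh1a1 and Ly75 in MctDio KO sit near WT, Col6a2 lies between MMI and WT, and Pvalb, Hr and Nefm in MctDio KO sit far nearer to MMI than to WT on a linear scale.

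Among the genes listed as lowered by the hormone, Ly75, an endocytic receptor, had 2.7 to 3.34 CPM in MctDio KO (median 3.02), 8.25 to 16.1 CPM in MMI (median 13.2) and 1.42 to 3.64 CPM in WT. No MctDio KO library reached any MMI library (-2.09 ± 0.13, adjusted p = 1.83e-10). Igfbp3, which binds insulin-like growth factors, fell by 1.12, with 22.2 to 40.2 CPM in MctDio KO and 45.5 to 82.4 CPM in MMI. Col6a2, a collagen VI chain, averaged 34.2 ± 4.7 CPM in MctDio KO, 47.4 ± 2.37 CPM in MMI and 21 ± 3.02 CPM in WT, so that MctDio KO lay between the other groups (-0.48, adjusted p = 0.000102).

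The place of WT was then read for every called gene, by asking whether the WT mean of log2 CPM fell within the range of the 7 MctDio KO libraries, of the 7 MMI libraries, of both or of neither. For 726 of the 1411 called genes, 51.5%, WT lay within the MctDio KO range only, and for 118 genes, 8.36%, within the MMI range only. Among genes that were not called these shares were 24.1% and 5.86%, so there too WT lay more often within the MctDio KO range only. Genes are called when the groups differ, which by itself makes the class within both ranges small among them. That class held 6.95% of called genes and 51.4% of genes not called. The shares of genes not called are therefore no baseline for those of called genes. WT lay above both ranges for 280 of the 623 rises, 44.9%, and below both for 139 of the 788 falls, 17.6%. In those genes MctDio KO was on the same side of WT as MMI and less far from it. These classes split the named genes: Aldh1a1, Nid1 and Sgk1 had WT in the MctDio KO range, and Pvalb, Hr, Kcnj10 and the neurofilament genes had WT above both. No test was made on the classes, and the range of 7 libraries is wide, so that a small departure of MctDio KO and WT can lie within it.

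**Figure D2:**
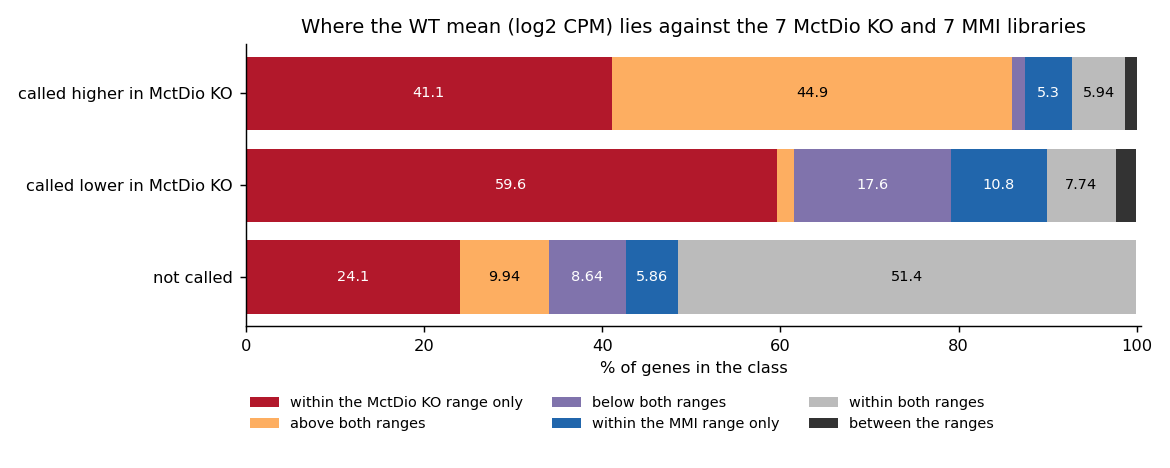
Share of genes by where the WT mean of log2 CPM lies against the ranges of the 7 MctDio KO and 7 MMI libraries, in %, for genes called higher in MctDio KO, called lower in MctDio KO and not called. Within the MctDio KO range only is the largest class among falls (59.6%), and above both ranges is the largest among rises (44.9%).

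Of 25 endothelial and blood-brain barrier genes tested, 13 fell and 1 rose, with a median of -0.32. Of 22 mural and leptomeningeal genes, 8 fell and none rose, also with a median of -0.32, and 4 fell in the fit over 35 libraries. Slco2a1, the prostaglandin transporter (ENSMUSG00000032548, chromosome 9, 102988712 to 103096002, plus strand), had 0.824 to 1.52 CPM in MctDio KO (median 1.09), 4.27 to 9.55 CPM in MMI (median 6.41) and 0.962 to 3.1 CPM in WT. MctDio KO and MMI were fully separate (-2.43 ± 0.19, adjusted p = 9.59e-09). Kdr, the VEGF receptor of endothelium, had 13.5 to 20.4 CPM in MctDio KO (median 16.8), 22.8 to 42.6 CPM in MMI (median 31.6) and 14.5 to 25.7 CPM in WT (-0.96 ± 0.12). Cldn5, the tight-junction claudin, averaged 34.5 ± 6.02 CPM in MctDio KO, 60.9 ± 6.1 CPM in MMI and 41.9 ± 8.8 CPM in WT (-0.83 ± 0.09). Vwf, the endothelial clotting protein, averaged 20.2 CPM in MctDio KO and 36.8 CPM in MMI (-0.87), and Cdh5, the endothelial cadherin, averaged 10.7 CPM in MctDio KO and 19 CPM in MMI (-0.84).

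The mural falls ran between -0.7 and -0.22. Pdgfrb, the PDGF receptor of pericytes, had 21.4 to 31.3 CPM in MctDio KO and 32.5 to 40.1 CPM in MMI, and Notch3 had 13 to 17.3 CPM in MctDio KO and 20.4 to 27.5 CPM in MMI. Neither pair of groups overlapped (-0.49 and -0.57). The falls did not cover every vessel gene: Slc2a1, the barrier glucose transporter, changed by -0.02 and Mfsd2a, a lipid transporter, by 0.04, and neither was called. Ly6a, an endothelial surface antigen, rose by 0.98. WT lay within the MctDio KO range only for 10 of the 14 called endothelial genes. The summed level of the endothelial list was 753 to 888 CPM in MctDio KO, 905 to 1150 CPM in MMI and 755 to 946 CPM in WT. In whole tissue, fewer cells of a type and less RNA per cell cannot be told apart.

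Of 37 collagen and matrix genes, 13 fell, 2 rose and 22 were not called, with a median of -0.25. In the fit over 35 libraries 7 fell. Nid1, a basement membrane linker, had 11.5 to 19.4 CPM in MctDio KO (median 16.8), 28 to 40.7 CPM in MMI (median 31.5) and 12.9 to 20.8 CPM in WT (-1.07 ± 0.12, adjusted p = 1.09e-05). MctDio KO and WT overlapped, and MMI stood above both. Lama1, a laminin chain, averaged 2.83 CPM in MctDio KO and 7.4 CPM in MMI (-1.4), and Col4a5, a basement membrane collagen, averaged 5.38 CPM in MctDio KO and 9.87 CPM in MMI (-0.89). Fn1, fibronectin, had 58 to 75.5 CPM in MctDio KO, 85.7 to 123 CPM in MMI and 46.1 to 83.8 CPM in WT (-0.63). Vim, the intermediate filament of vessels and immature glia, had 25.7 to 40.6 CPM in MctDio KO and 56.8 to 64.9 CPM in MMI (-0.86, adjusted p = 4.4e-08). Of the largest falls, Aoc3 (an amine oxidase of vascular smooth muscle), Aplnr (the apelin receptor) and Pcdh12 (a cadherin of endothelium) are also vessel genes, at -1.67, -1.66 and -1.77. Myoc, myocilin, fell by 1.92.

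Of 8 erythroid genes tested 5 rose. These 5, 4 globin genes and Alas2 (heme synthesis in red cells), rose by 1.3 to 1.48, and the other 3 tested did not pass. Hbb-bs had 50.8 to 111 CPM in MctDio KO, 30 to 37.9 CPM in MMI and 65.9 to 131 CPM in WT. The 5 transcripts summed to 151 ± 41 CPM in MctDio KO, 59.4 ± 5.15 CPM in MMI and 168 ± 42 CPM in WT (SD, n = 7 each). MctDio KO and MMI did not overlap, but these 5 were summed because they had been called, so the sum is a description without a test. Hba-a1 and Hba-a2 are near-identical copies of each other, as are Hbb-bs and Hbb-bt, so counts of single copies are uncertain. Residual blood in the tissue was not measured, and its part in these rises was not tested.

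**Figure D3:**
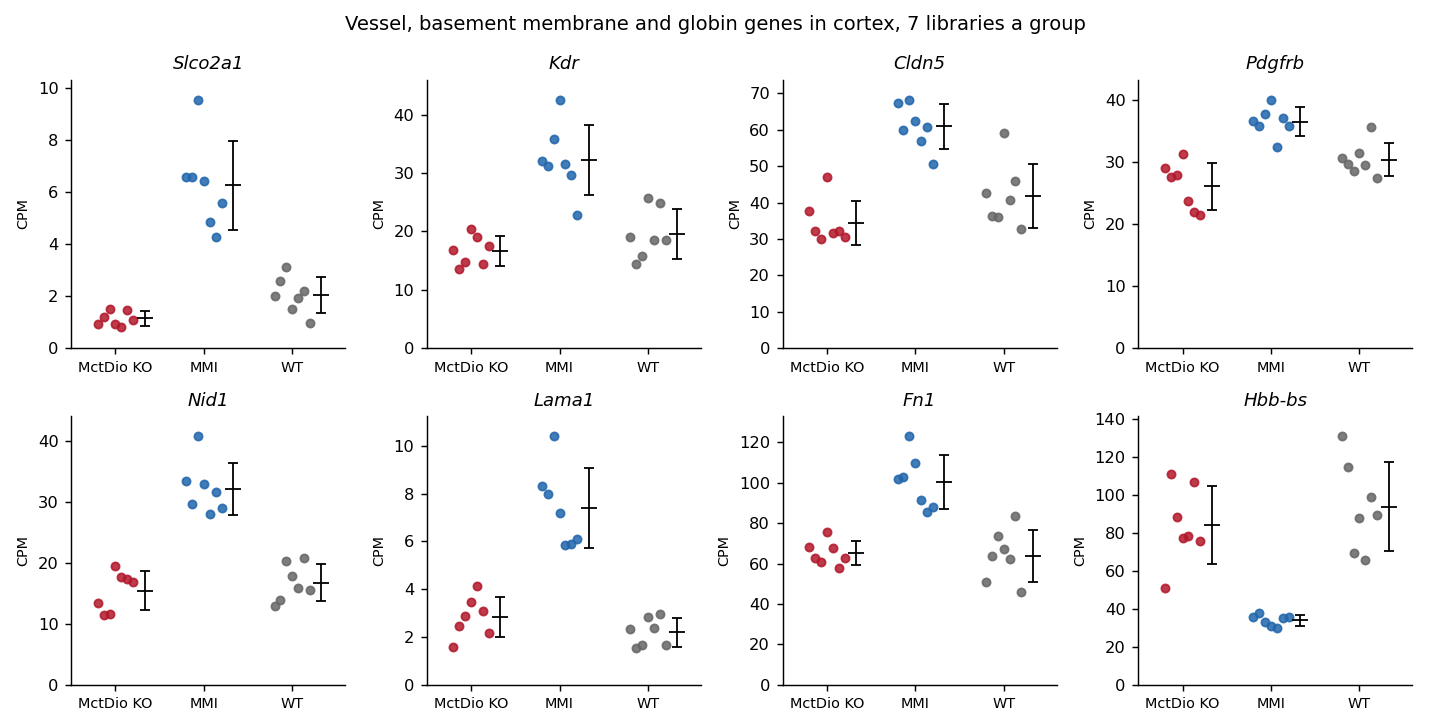
Normalised counts (CPM) of 7 vessel or basement membrane genes and the globin gene Hbb-bs in 7 cortex libraries each of MctDio KO, MMI and WT; points are libraries, and bars give mean and SD. All 8 axes start at 0. In each of the 8 genes MctDio KO and MMI do not overlap; Hbb-bs is the only rise.

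The type I interferon response had the lowest median of the 39 lists. Of 27 genes tested, 25 fell and none rose, with a median of -1.19. The exceptions were Irf9 (-0.46) and Stat2 (-0.26), which also had negative values and did not pass. The list holds sensors of viral RNA, factors that carry the interferon signal and proteins that block virus growth. WT lay within the MctDio KO range only for 22 of the 25. To show what several of these genes share, the 160 bases before the RefSeq start site of 4 of them are printed 5′ to 3′ on the coding strand (RefSeq, GRCm38.p6), with matches to GAAANNGAAA on either strand in capitals. This motif stands for the element bound by interferon-activated factors and was chosen after the list's values were seen.
Isg15 (chr4:156200819-156200978, minus strand): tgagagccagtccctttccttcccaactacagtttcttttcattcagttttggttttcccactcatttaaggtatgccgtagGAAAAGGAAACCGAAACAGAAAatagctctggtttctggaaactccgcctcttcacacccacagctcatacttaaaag
Ifit3 (chr19:34583369-34583528, plus strand): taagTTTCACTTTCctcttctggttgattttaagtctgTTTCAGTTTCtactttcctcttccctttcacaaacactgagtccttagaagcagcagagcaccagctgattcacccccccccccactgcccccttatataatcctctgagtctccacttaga
Rsad2 (chr12:26456453-26456612, minus strand): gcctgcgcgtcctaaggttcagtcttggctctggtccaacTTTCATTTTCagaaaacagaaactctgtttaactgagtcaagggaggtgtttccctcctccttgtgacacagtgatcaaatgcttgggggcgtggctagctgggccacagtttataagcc
Ddx60 (chr8:61927927-61928086, plus strand): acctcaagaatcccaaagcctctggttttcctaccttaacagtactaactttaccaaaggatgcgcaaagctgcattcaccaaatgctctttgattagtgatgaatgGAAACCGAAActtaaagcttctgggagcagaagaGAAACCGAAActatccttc

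Isg15 holds 3 overlapping matches in 1 run, Ifit3 and Ddx60 hold 2 each, and Rsad2 holds 1. In the RefSeq windows of 250 bases before to 50 after the start, the motif was found in 12 of 22 promoters of 19 matched list genes, 54.5%. It was found in 2.92% of the 14488 promoters of tested genes, in 7.54% of those of genes called lower, and in 1.73% of those of genes called higher. Among genes called lower that are not on the list, it was in 6.2%. AGGTCA, the half-site of thyroid hormone receptors, was in 12.4% of promoters of tested genes, 11.9% of those called higher and 11.5% of those called lower, on either strand. The direct repeat of this half-site spaced by 4 bases was found in none of the windows of any tested gene. An exact match this long is too rare here to set called genes apart from the rest. A match is a description of letters in these windows and not of binding.

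Levels of interferon genes were low and varied between libraries of a group. Ddx60, an RNA helicase, had 0.675 to 3.18 CPM in MctDio KO, 1.99 to 7.11 CPM in MMI and 0.597 to 3.74 CPM in WT, so the groups overlapped (-1.76 ± 0.38, adjusted p = 0.00946). Irf7, the factor that amplifies interferon production, had 0.824 to 4.85 CPM in MctDio KO and 3.97 to 12.4 CPM in MMI (-1.64, adjusted p = 0.00723). Ifit3 averaged 3.69 ± 2.03 CPM in MctDio KO and 11.5 ± 4.22 CPM in MMI (-1.64). Isg15, a ubiquitin-like modifier, averaged 1.93 ± 0.966 CPM in MctDio KO and 4.36 ± 1.27 CPM in MMI (-1.19). Rsad2, viperin, had 1.42 to 2.21 CPM in MctDio KO and 2.5 to 6.94 CPM in MMI, without overlap (-1.19 ± 0.22, adjusted p = 0.00129).

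The 27 genes summed to 241, 233, 149, 129, 149, 169 and 162 CPM in MctDio KO 1 to 7, and to 269, 285, 303, 437, 439, 208 and 331 CPM in MMI 1 to 7. WT libraries summed to 144 to 238 CPM. MMI 4 and 5 were highest, MctDio KO 1 and 2 were the highest of their group, and MMI 6 lay below both of these. Of the 27 genes, 4 had groups without overlap, beside 2.57% of all genes tested. Leaving out each library in turn left 21 to 27 members called lower, with the lowest count without MMI 5. The 18 antigen presentation genes tested went the same way in part, with 6 lower and none higher (median -0.3), among them Tap1, the peptide transporter, at 3.28 CPM in MctDio KO and 7.6 CPM in MMI (-1.21, adjusted p = 0.000124). Of 20 microglial genes 5% were called, beside 9.08% of all genes tested. Only Fcrls fell, at 16.7 ± 5.09 CPM in MctDio KO, 37.3 ± 2.6 CPM in MMI and 34.1 ± 6.01 CPM in WT (-1.18). WT lay in the MMI range here.

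**Figure D4:**
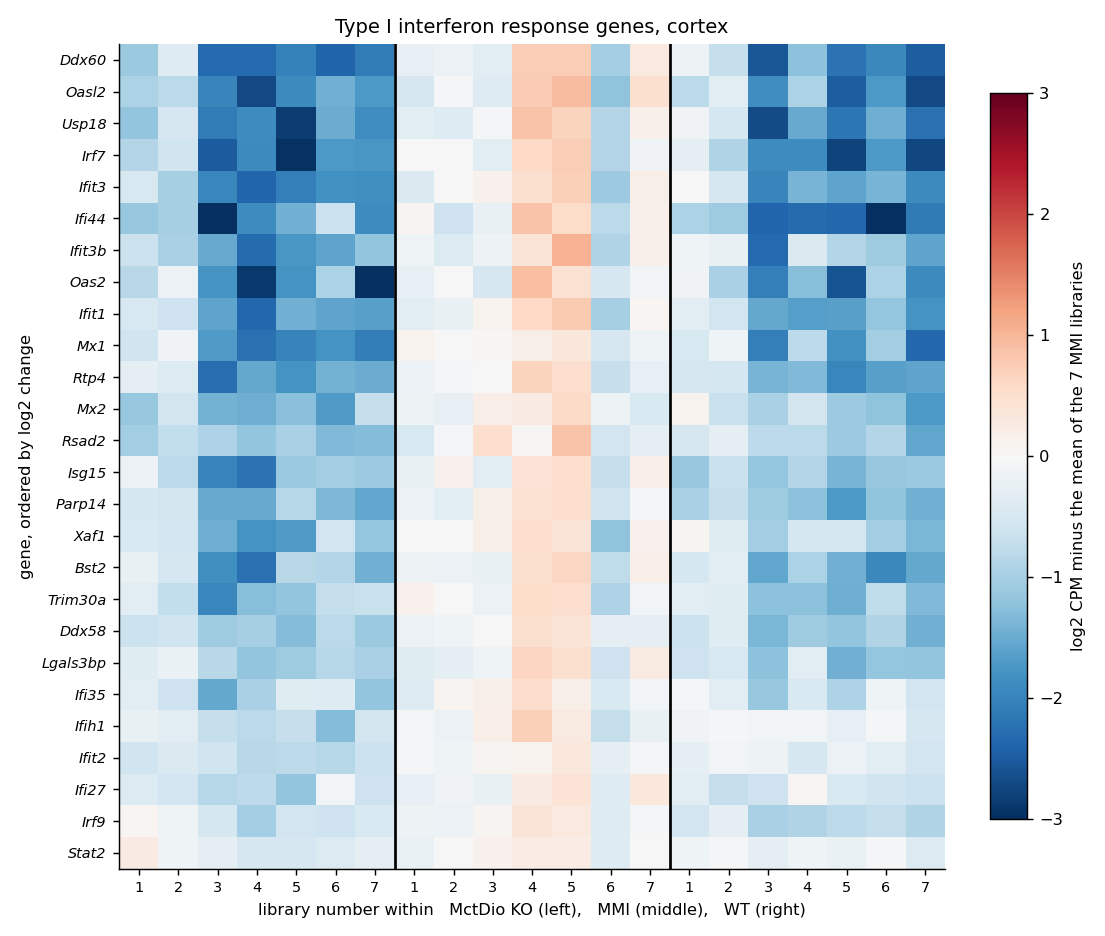
Heat map of 26 of the 27 type I interferon response genes tested (rows, ordered by log2 change) in 21 cortex libraries (columns, MctDio KO 1 to 7, MMI 1 to 7 and WT 1 to 7); colour gives log2 CPM minus the mean of the 7 MMI libraries. MctDio KO and WT are mostly below the MMI mean, and MMI 4 and 5, with summed levels of 437 and 439 CPM, are above it.

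Of 24 fast-spiking interneuron genes, 8 rose and none fell (median 0.13), and WT lay above both ranges for all 8. In the fit over 35 libraries 3 were called. Besides Pvalb these include Kcng4, a potassium channel subunit, with 3.26 to 8.55 CPM in MctDio KO, 1.07 to 2.43 CPM in MMI and 8.52 to 14.8 CPM in WT (1.81 ± 0.24, adjusted p = 5.97e-05). On the same list Gad1, which makes GABA, measured 0.15 and Lhx6, a factor of interneuron development, 0.01, and neither was called. Of 42 sodium and potassium channel genes 10 rose and none fell, and 4 were called in the fit over 35 libraries. Kcnk1, a leak channel, had the smallest p of them, at 106 ± 9.4 CPM in MctDio KO and 70.9 ± 2.82 CPM in MMI (0.57, adjusted p = 3.35e-07).

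Of 25 neurofilament and cytoskeleton genes, 7 rose and 1, Vim, fell, with 4 rises in the fit over 35 libraries. Nefm, the medium neurofilament chain, averaged 102 ± 10.4 CPM in MctDio KO, 70.1 ± 8.22 CPM in MMI and 302 ± 43.8 CPM in WT (0.53 ± 0.07, adjusted p = 6.94e-05). The ranges of MctDio KO and MMI overlapped through MctDio KO 1, at 80.6 CPM, and MMI 5, at 87 CPM. Nefl and Nefh rose by 0.28 and 0.45. Gfap, the astrocyte filament on the same list, had 141 to 193 CPM in MctDio KO, 62.8 to 137 CPM in MMI and 98.1 to 147 CPM in WT, so that MctDio KO was the highest group (0.74 ± 0.14). Of 24 astrocyte genes 5 rose and 3 fell, with a median of 0.01. The count of rises was 3 without MMI 2, MMI 6 or MctDio KO 7, and 3 in the fit over 35 libraries.

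Of 33 synaptic vesicle and scaffold genes 8 rose and none fell, but the count was 4 without MMI 3 or MMI 7, 5 without MMI 4 or MMI 6, 4 with scaling by library totals, and 3 in the fit over 35 libraries. Cplx3, a complexin, had the largest called change, with 10.5 to 15.5 CPM in MctDio KO, 5.39 to 8.19 CPM in MMI and 24.6 to 35.4 CPM in WT (0.86 ± 0.1). Hapln4, a link protein of perineuronal nets, had 21.4 to 26.7 CPM in MctDio KO, 12.6 to 18.3 CPM in MMI and 68.2 to 104 CPM in WT (0.66 ± 0.08). Gabrd, the delta subunit of GABA-A receptors, rose by 0.38 (adjusted p = 3.73e-05). Among other interneuron genes 4 of 20 rose, among them Lamp5 (0.4) and Crh (0.7). Of 26 mature oligodendrocyte genes none rose and 1 fell, or 3.85% beside 9.08% of all genes tested, with a median of -0.21. Their summed level was 4850 to 8160 CPM in MctDio KO, 5660 to 8670 CPM in MMI and 10300 to 13400 CPM in WT.

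Of 26 immediate early genes, which neurons switch on when active, 10 rose and 16 were not called. All 26 values were positive, with a median of 0.45. Egr1 averaged 417 ± 72.4 CPM in MctDio KO, 272 ± 50.7 CPM in MMI and 408 ± 114 CPM in WT (0.61 ± 0.12, adjusted p = 0.00732). Ier5 had 38.7 to 51.8 CPM in MctDio KO and 28.6 to 34.5 CPM in MMI (0.48, adjusted p = 4.96e-05). Arc and Fos had larger values, 1.06 and 0.84, with wide spreads, and did not pass (adjusted p = 0.0822 and 0.0831). Fos had 65.8 to 100 CPM in MctDio KO 1 to 4 and 35.7 to 42.1 CPM in MctDio KO 5 to 7, with MMI at 20.9 to 52.1 CPM. The count was 6 without MMI 3 or MMI 7, and 6 with no filter on low counts. Time of day and handling at sampling are not known here. Of 19 clock genes 1, Arntl, rose (0.26), and none fell, so 5.26% were called, beside 9.08% of all genes tested.

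Of 32 cholesterol synthesis and uptake genes 10 rose and 2 fell (median 0.17), with 4 rises in the fit over 35 libraries. Cyp51 averaged 85.1 ± 6.67 CPM in MctDio KO, 68.2 ± 4.86 CPM in MMI and 110 ± 7.41 CPM in WT (0.31, adjusted p = 0.000772), Sqle rose by 0.29 and Stard4, a sterol carrier, by 0.45. Abca1, which exports cholesterol, fell by 0.67. Of 27 ketone and fatty acid oxidation genes 5 fell and 2 rose (25.9% called), with 8 falls without MctDio KO 1 and 2 in the fit over 35 libraries. Cpt1a, the entry step of mitochondrial fatty acid oxidation, had 26.1 to 34.2 CPM in MctDio KO and 36 to 43.2 CPM in MMI (-0.33), and Acsbg1, an acyl-CoA synthetase, had 143 to 192 CPM in MctDio KO and 113 to 133 CPM in MMI (0.44). Neither pair overlapped. Of 52 nuclear-encoded respiratory chain genes 51 had positive values with a median of 0.09. Only 3 were called, 5.77% beside 9.08% of all genes tested. None of 7 mitochondrially encoded genes was called.

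Of 30 growth factor genes and receptors 5 rose and 6 fell, and 1 rose and 3 fell in the fit over 35 libraries. Bdnf, a neurotrophin, rose by 0.52 and Fgf1 by 0.32, while Ntf3, another neurotrophin, measured -0.55 and Vegfd -0.68, both called. Of 44 axon guidance genes 3 rose and 5 fell, with 1 fall in the fit over 35 libraries. Sema6a, a semaphorin, measured -0.53 (adjusted p = 8.61e-06), Robo4, a receptor of endothelium, -0.76, and Sema7a 0.43 (adjusted p = 0.000607). Of 16 perineuronal net genes 2 rose and 3 fell, and the falls included Tnc, tenascin C (-0.87), and Hapln3 (-0.75). Of 18 oligodendrocyte precursor genes none rose and 2 fell, Vcan (-0.3) and Cspg4 (-0.22), and of 24 progenitor genes only Pax6 fell (-0.45). The called shares were 36.7% of growth factor, 18.2% of axon guidance and 31.2% of perineuronal net genes. Precursor genes, at 11.1%, and progenitor genes, at 4.17%, lay nearer to the 9.08% of all genes tested. Tnc, Vcan and Cspg4 each lost the call without MMI 3, and Vcan and Cspg4 without several other libraries too.

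Some of the largest differences followed neither MMI nor WT. Rps3a3 had 32.4 to 43.9 CPM in MctDio KO, 0.135 to 0.295 CPM in MMI and 0.0917 to 0.405 CPM in WT, and Rps3a1 had 0.641 to 0.927 CPM in MctDio KO, 25.4 to 27.1 CPM in MMI and 22.4 to 26.8 CPM in WT. Rps3a3 (chromosome 13) is annotated as a processed pseudogene of the ribosomal protein gene Rps3a1 (chromosome 3), and reads of such copies cannot be assigned with certainty. Strain and the deleted alleles cannot be told apart here. Rtp1, a receptor-transporting protein, had 4.86 to 13.9 CPM in MctDio KO, 1.72 to 3.64 CPM in MMI and 0.79 to 3.3 CPM in WT (1.63 ± 0.21). Around Dio2, 2 of 5 tested genes within 1 Mb were called (40%) and 5 of 36 within 5 Mb (13.9%). Within 10 Mb 7 of 113 were called (6.19%), and within 20 Mb 25 of 253 (9.88%). On the rest of chromosome 12 the share was 11.3%, and over all genes tested 9.08%. Apart from Gm26512 the genes called within 5 Mb were Cep128 (-0.41), Tmed8 (-0.25), Flvcr2, a heme and choline transporter (-1.05), and Noxred1 (0.9). The call of Noxred1 was lost when MctDio KO 2 or MMI 7 was left out.

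In striatum 602 genes were higher and 654 lower in MctDio KO than in MMI, 7.93% of 15843 tested. Called in both tissues in the same direction were 600 genes, which is 42.5% of those called in cortex and 47.8% of those called in striatum, and 1 gene was called in opposite directions. Titles give both tissues the same numbered names, so the tissues cannot be taken as independent. The interferon list had 24 of 29 members lower in striatum (median -1.19), and the endothelial list 12 of 25 lower and 1 higher (-0.35). The 5 erythroid genes were also higher. In striatum 1 of 32 cholesterol genes rose and 5 of 37 matrix genes fell, with Pvalb at 0.81 (adjusted p = 0.105). Differences between the tissues were not tested.

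**Figure D5:**
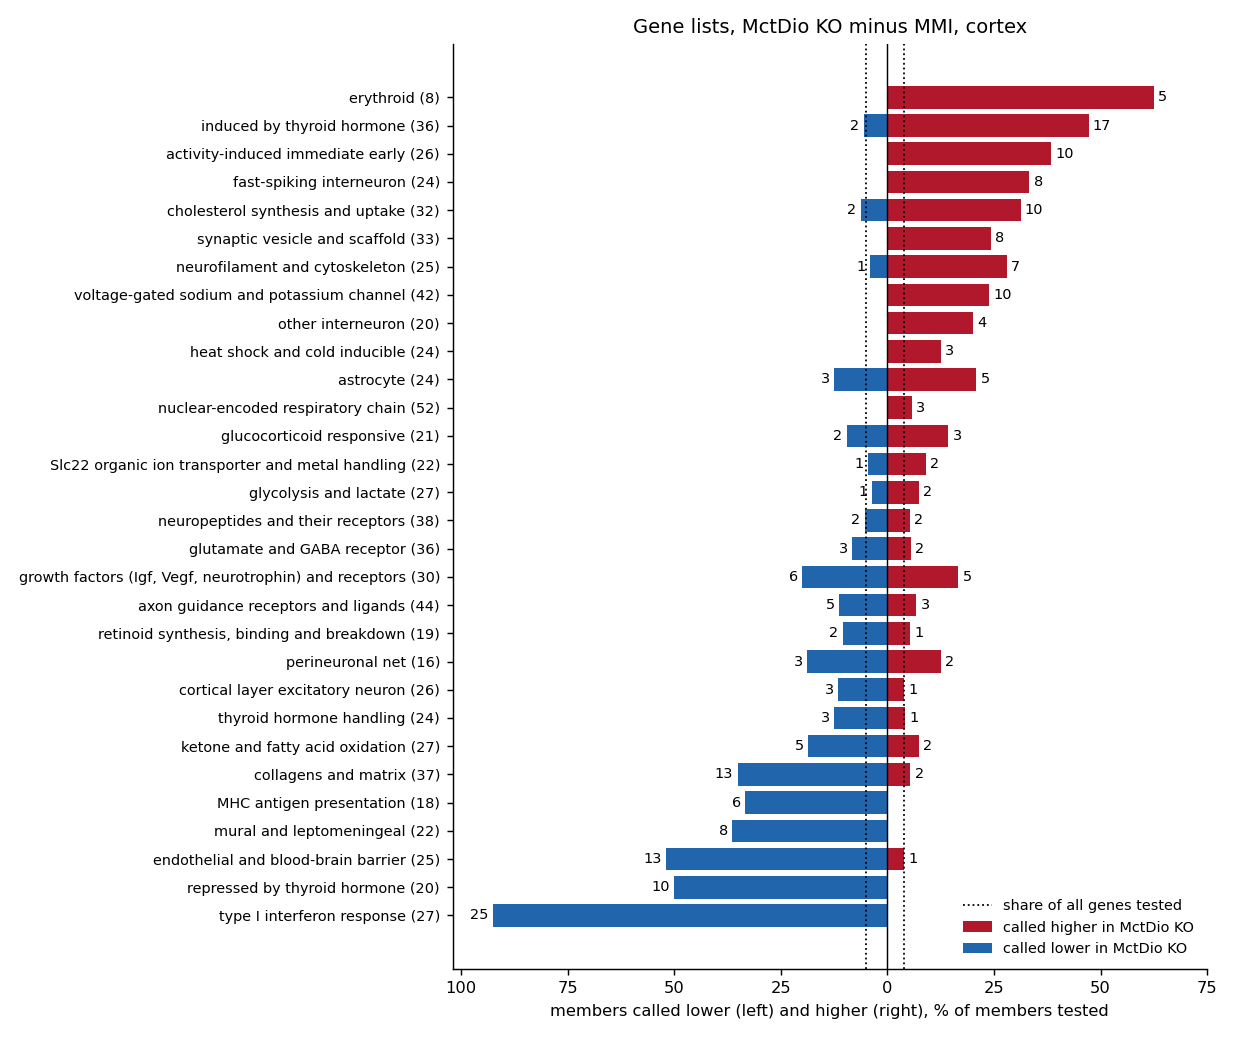
Members called higher (right) and lower (left) in MctDio KO than in MMI cortex, as % of the members tested, for the gene lists with at least 3 members called; numbers at the bars are genes called, and numbers in brackets are genes tested. Dotted lines mark the shares over all genes tested, 4.01% higher and 5.07% lower. Interferon genes have the largest share lower (25 of 27) and erythroid genes the largest share higher (5 of 8).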

How the data were processed

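RNA from cortex and striatum was sequenced as single 75-nt reads from 500 ng of RNA with a kit that does not mark strand, per the labels' protocols. The authors deposited whole-number read counts for each gene and library, not normalised. The submitters' processing notes name Bowtie and TopHat (alignment), HTSeq (counting), CASAVA, FastQC and edgeR, and the GRCm38 build, without versions. Of each file 38293 gene lines were used, and the 5 summary lines at its end were dropped. GENCODE M21 gave symbols for 36429 identifiers.

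The 14 libraries were fitted with edgeR 4.0.16 (R 4.3.3): filterByExpr, TMM scaling and robust quasi-likelihood F tests, with Benjamini-Hochberg adjustment over 15539 genes. Log2 changes are MctDio KO minus MMI with standard errors, and the biological coefficient of variation was 0.0883. CPM are TMM-scaled over the 21 cortex libraries of MctDio KO, MMI and WT. The exceptions are the single cortical, striatal and sex-linked marker genes of the first check, which used library totals. On simulated counts the fit called 84% of genes changed 1.5-fold and 100% of those changed 2-fold. Striatum was fitted likewise. Counts in genes (9982587 to 20034629 per library), alignments outside genes, ambiguous or not unique, mitochondrial share and genes detected gave an exact permutation p of 0.0909 or more each, among 7 measures tested. The share of counts from the erythroid list was 0.0603% in MctDio KO and 0.0488% in MMI. That list was written with earlier results known and holds the 5 called erythroid genes, so its share is a description without a test. Its tested members summed to 533 to 681 CPM in MctDio KO, and the 5 called genes averaged 151 CPM in sum there. Counts of 42 library pairs within groups all differed by more than sampling noise (chi-square over its degrees of freedom at least 3.01). Titles number the libraries of each group, but the labels do not say that the numbers are separate animals, so p-values measure the spread between these libraries.

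The 39 gene lists and the comparison itself were chosen with earlier results of these data known. Named were Dio2, Dio3 and Slco1c1, the 12 largest rises and 12 largest falls among called genes of at least 1 CPM without provisional names, up to 4 genes per list with the smallest p, and called genes within 5 Mb of Dio2. Some genes of the rule and the lists are not reported here by name. Genes outside the rule, such as Irf7, Ifit3, Isg15, Vwf, Col4a5, Arc, Fos, Robo3 and Thrb, and list members given by a log2 value alone, were named after their values were seen. Alternatives were other scalings, DESeq2 1.42.0, limma-voom (limma 3.58.1), other filters, a replicate block, wider fits, glmTreat against a fold of 1.5, and leaving out each library.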

Additional observations from a re-analysis of the deposited data

Results flagged for a closer look

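Within groups of 7 libraries, 26 of 370 groups (7.03%) held a library whose gap to its nearest neighbour, divided by the group's range, exceeded 0.568; chance gives about 1 in 20. MctDio KO 3 was highest for the choroid plexus genes Prlr (gap 0.845), Enpp2 (0.662) and Ttr (0.582), and for Rasd2 (0.571). MctDio KO 1 was lowest for Npas2 (0.699), Gabra4 (0.608), Nefm (0.592) and Grin3a (0.588), and had the highest share of alignments that were not unique, 30.5% against 27.9% to 28.8% (0.663). In MctDio KO, Kdm5d was high in library 5 (0.629) and Aoc3 in library 6 (0.613).

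In MMI, library 5 was high for Rasd2 (0.63), Nefm (0.62), Nefh (0.595) and Dio3 (0.572), and low for Camk2a (0.718). MMI 1 was high for Stra6 (0.742), Lamp5 (0.659) and Egr1 (0.594). MMI 2 was high for Hba-a2 (0.798) and Ntsr1 (0.628), and MMI 3 for Nid1 (0.581). MMI 7 was high for Myoc (0.622), Aldh1a2 (0.618) and Tnc (0.586), and low for Ddx3y (0.684). The part of these libraries in other results was not tested beyond leaving each out.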

How the results depend on the processing

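No named gene changed sign with a call under any alternative, and 121 of the 135 called named genes kept the call whichever library was left out. Genes called numbered 1004 (without MMI 3) to 1952 (without MctDio KO 1), with 414 to 892 higher and 590 to 1060 lower. Fitting all 35 cortex libraries called 516 genes (176 higher, 340 lower); without MctOatp KO 1 and 7, an alternative chosen after seeing the data, 936 were higher. Testing against a fold of 1.5 called 48 (18 higher, 30 lower).

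Members called under the 35-library fit and under the 1.5-fold test were, in that order: hormone-induced 8 and 3; fast-spiking 3 and 2; channels 4 and 2; neurofilament 4 and 0; synaptic 3 and 0; astrocyte 3 and 1; mural 4 and 0; matrix 7 and 2; growth factors 1 and 0 higher, 3 and 0 lower; cholesterol 4 and 0; ketone and fatty acid 2 and 1; axon guidance 1 and 0. The 1.5-fold test called 3 hormone-repressed and 1 endothelial gene, and 0 immediate early, interferon or antigen presentation genes. Synaptic rises were 4 under library totals, and 14 under DESeq2 and under the 33-library fit. Immediate early rises were 6 with no filter. Over leave-one-out fits synaptic rises were 4 to 12, astrocyte rises 3 to 6, immediate early rises 6 to 10, and ketone and fatty acid falls 4 to 8.

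Same-numbered libraries deviated together in 4 of 7 pairs, with correlations of 0.143 to 0.288, and none correlated best with its own number. These values neither establish nor exclude that the numbers pair the samples. With the replicate number as a block, 602 genes were higher and 814 lower, with 16 interferon and 3 antigen presentation genes lower. The cause of these shifts was not tested. Genes near 1 CPM, several interferon genes among them, carry few reads per library.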
